A study of Rattus norvegicus with 6 samples.

Results

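The glucocorticoid receptor, the related mineralocorticoid receptor, an enzyme that makes their ligand and 6 of their target genes were followed here in cardiac fibroblasts. The 9 genes were taken by symbol from the count files, which list 21857 symbols in all, and each of the 9 was present in every file. By role they are the receptors Nr3c1 and Nr3c2, the enzyme Hsd11b1, and the targets Fkbp5, Tsc22d3, Zbtb16, Sgk1, Errfi1 and Cdkn1c.

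RNA-seq was done on 6 libraries of fibroblasts isolated from newborn rat hearts, 3 from cells that received an empty plasmid (Vector, genotype label WT) and 3 from cells that received an FTO plasmid (genotype label FTO overexpression). FTO removes the methyl group of N6-methyladenosine (m6A) from RNA. The design text gives healthy Sprague-Dawley rats up to 3 days old, while the strain label reads Noway, and no other treatment or allele is given for either group. The cells were grown in medium with fetal bovine serum and no added steroid is named. The oxygen level of the sequenced cultures, and whether the 3 libraries of a group came from separate litters or cultures, are not given in the sources used here, so p-values measure the spread between these libraries, which may be technical.

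The glucocorticoid receptor waits in the cytoplasm in a complex of heat shock proteins and immunophilins. When it binds corticosterone, the main glucocorticoid of the rat, it enters the nucleus, binds response elements near target genes and raises their transcription, and it also restrains inflammatory genes that depend on NF-κB or AP-1. In the heart, the mineralocorticoid receptor binds the same hormone, and both receptors are known for their influence on inflammation and fibrosis.

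To show the start regions of the targets that moved in opposite directions, promoter windows were read from RefSeq on the GRCr8 assembly, 250 bases before to 50 bases after a transcription start. Windows were found for 5 of the 9 genes, 10 windows in all. The windows below are those of Fkbp5 and Sgk1, which were higher in the libraries labelled FTO, and of Tsc22d3, which was lower. Where a gene has several windows, the one nearest its 3′ end is printed. Each sequence runs 5′ to 3′ on the minus strand, and capitals mark matches to TATAAA or CCAAT on either strand.
Fkbp5, chr20:6543506-6543805: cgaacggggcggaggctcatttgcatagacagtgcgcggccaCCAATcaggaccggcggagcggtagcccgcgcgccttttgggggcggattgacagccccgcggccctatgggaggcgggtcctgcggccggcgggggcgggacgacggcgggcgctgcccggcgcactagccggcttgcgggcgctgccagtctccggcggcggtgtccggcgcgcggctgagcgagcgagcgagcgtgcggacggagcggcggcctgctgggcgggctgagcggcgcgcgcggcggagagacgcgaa
Sgk1, chr1:24804782-24805081: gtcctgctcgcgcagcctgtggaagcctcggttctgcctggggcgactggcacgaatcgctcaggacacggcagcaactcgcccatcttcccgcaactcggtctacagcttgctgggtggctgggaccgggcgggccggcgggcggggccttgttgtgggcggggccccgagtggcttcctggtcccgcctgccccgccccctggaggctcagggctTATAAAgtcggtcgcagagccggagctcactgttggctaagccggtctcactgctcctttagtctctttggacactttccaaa
Tsc22d3, chrX:109009985-109010284: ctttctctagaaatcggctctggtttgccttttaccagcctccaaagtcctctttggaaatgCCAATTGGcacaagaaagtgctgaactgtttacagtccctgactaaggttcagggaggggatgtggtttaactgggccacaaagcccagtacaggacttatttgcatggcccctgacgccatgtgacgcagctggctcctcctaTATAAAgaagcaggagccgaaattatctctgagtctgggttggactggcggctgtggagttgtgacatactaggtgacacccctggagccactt
In these windows TATAAA begins 33 bases before the start of Sgk1 and 44 bases before that of Tsc22d3. The window of Fkbp5 holds no TATAAA and has CCAAT 208 bases before the start. In the Tsc22d3 window CCAAT and its reverse complement overlap, beginning 188 and 185 bases before the start. The palindromic glucocorticoid response element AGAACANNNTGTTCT was in none of the 10 windows and in 0.0149% of all 33469 windows of this length in the table. Its shorter AGAACA arm, on either strand, was also in none of the 10, against 20.7% of all windows. TATAAA was in 4 of the 10 windows (14.2% of all) and CCAAT in 3 (37.5% of all). A match, or its absence, describes the letters of these windows only.

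Total counts were 13178952 to 17857999 per library, and the 3 counts taken as a floor were worth 0.168 to 0.227 CPM, the count of a gene relative to the library total after TMM scaling. Log2 CPM correlated across genes at 0.993 to 0.996 within the groups and 0.887 to 0.894 between them, which describes the libraries only. Fto, which the plasmid should raise, was at 88.3 ± 1.2 CPM in Vector and 92.3 ± 1.32 CPM in the other group (SD, n = 3 each), 0.06 apart on the log2 scale (SE 0.0468, adjusted p = 0.239 by the quasi-likelihood test of edgeR). The groups did not overlap, at 87.4 to 89.6 and 90.8 to 93.2 CPM, but the difference did not pass the test, hence the wording libraries labelled FTO. The study describes a plasmid with rat FTO cDNA, and reports by qRT-PCR and western blot that transfection raised FTO. Whether transcripts of the plasmid were counted as Fto is not given in the sources used here. Whether the sequenced cultures were among those checked is not given either. Fibroblast markers were present throughout, with a sum over 10 genes of 41419 to 42004 CPM in Vector and 21577 to 22559 CPM in the libraries labelled FTO. They moved both ways, 5 higher and 5 lower, from Dcn (119-fold higher) to the collagen genes Col1a1 and Col3a1 (0.320 and 0.312 of the Vector level). The 10 macrophage markers summed to 1685 to 1747 CPM in Vector and to 238 to 268 CPM in the libraries labelled FTO, where 9 of 10 were lower, Adgre1 was higher, and C1qb and C1qc had at most 2 counts in each library. The 9 cardiomyocyte markers measured summed to 1520 to 1551 CPM in Vector and 2293 to 2336 CPM in the libraries labelled FTO, with 8 higher and Tnnt2 lower, and none was at the floor. Of the other marker lists, 4 of the 6 endothelial genes tested were higher and 1 lower (summed level 33.7 to 36.4 against 57.7 to 62.2 CPM), 3 of 7 mural genes were higher and 4 lower (1587 to 1648 against 1314 to 1400 CPM), and 3 of 5 epicardial genes were higher and 1 lower (27.9 to 29.0 against 113 to 123 CPM). Fewer cells of a type and less RNA per cell cannot be told apart in such bulk samples, and the part of other cell types in the results below was not tested.

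The question of the comparison is which genes differ between cells given FTO and cells given the empty plasmid. Of the 9 genes, 8 were higher in the libraries labelled FTO and 1, Tsc22d3, was lower, each with an edgeR p-value, adjusted over 12941 genes, under 0.05. The background is high, since 65.9% of all tested genes passed this threshold, 33.2% of them upward and 32.8% downward, as shares of all tested. Fold changes ran from a 9.53-fold rise of Hsd11b1 to a fall of Tsc22d3 to 0.618 of its Vector level, with a median of 1.27 on the log2 scale, against 0.00 over all tested genes. At the study's own threshold, which asks for a log2 fold change of 1 or more and an unadjusted p-value under 0.05, 5 of the 9 were higher (Nr3c1, Nr3c2, Hsd11b1, Zbtb16 and Sgk1) and 0 lower, where 10.4% of all tested genes were higher and 9.27% lower. The groups did not overlap in CPM for any of the 9 genes, which was so for 70.3% of all tested genes. The 9 genes were chosen with earlier results of these data known, so their contrast with all tested genes is no test of them.

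**Figure D1:**
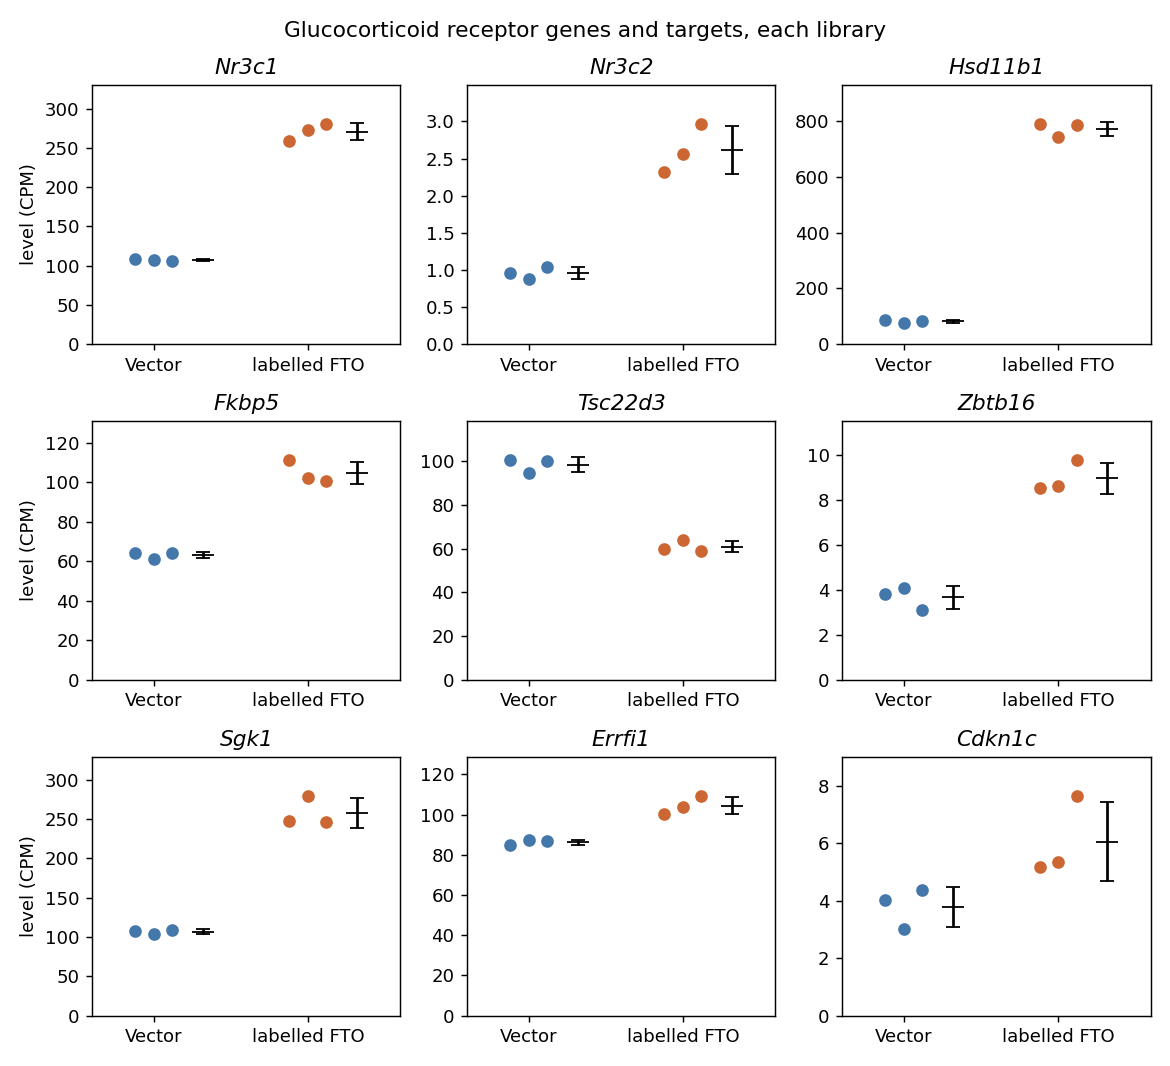
Level of each of the 9 genes (CPM, linear axes from 0, a scale per panel) in the 3 Vector libraries and the 3 libraries labelled FTO, 1 point per library, with the mean and SD as a bar at the right of each group. The groups are apart in each panel, and Tsc22d3 is the panel in which the Vector libraries lie above.

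The receptor genes rose together. Nr3c1 encodes the glucocorticoid receptor itself. Its level was 108, 107 and 106 CPM in Vector replicates 1, 2 and 3, and 258, 273 and 280 CPM in the same order among the libraries labelled FTO. The lowest library labelled FTO was thus well above the highest Vector library, and the spread within each group was small, with a coefficient of variation of 1.22% and 4.09%. The rise was 2.53-fold, or 1.34 on the log2 scale (SE 0.0451, edgeR adjusted p = 6.9e-13). Of all tested genes, 7.77% had a log2 fold change at least as high.

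Nr3c2, the gene of the mineralocorticoid receptor, was measured from few reads. It had 13, 13 and 15 counts in the Vector libraries and 33, 34 and 53 counts in the libraries labelled FTO. In CPM these were 0.951, 0.872 and 1.04 against 2.31, 2.57 and 2.96. Every library labelled FTO was above every Vector library, but at this depth the size of the rise is less certain than for Nr3c1. The rise was 1.46 on the log2 scale, with a 95% confidence interval of 0.91 to 2.0 (edgeR adjusted p = 1.4e-04). The interval contains the change of Nr3c1. The ratio of Nr3c1 counts to Nr3c2 counts within a library was 114, 122 and 102 in Vector and 112, 106.5 and 94.6 in the libraries labelled FTO, so the ratio overlapped between the groups. Since gene length enters this ratio, it is compared only between libraries.

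Profiles close to that of Nr3c1 were common. By the root mean square difference of centred log2 CPM over the 6 libraries, the 3 nearest genes were Pkm, a glycolytic pyruvate kinase (0.0370), Lox, a collagen-crosslinking lysyl oxidase (0.0372), and Ikbke, an inflammation-related kinase (0.0376), and 379 of 10027 genes with at least 100 counts on average lay within 0.2. With 2 groups, such likeness reflects mainly an equal difference between the groups. The log2 fold changes of Pkm, Lox and Ikbke were 1.35, 1.37 and 1.35.

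Hsd11b1 had the largest change of the 9 genes. It encodes the enzyme that regenerates active corticosterone from its inactive keto form inside cells. Its level was 85.5, 76.6 and 81.0 CPM in the Vector libraries and 788, 742 and 786 CPM in the libraries labelled FTO. The separation of the groups was far wider than the spread within either. On the log2 scale the groups differed by 3.25 (SE 0.0503, edgeR adjusted p = 6.9e-17), and 2.23% of all tested genes rose as much or more. H6pd, whose product supplies the cofactor that drives this enzyme toward active hormone, also rose, from 24.0 ± 1.64 to 56.2 ± 4.25 CPM (SD, n = 3 each). Hsd11b2, the gene of the opposing enzyme that inactivates the hormone, had 2 counts in each Vector library and 5, 1 and 5 counts in the libraries labelled FTO, and was not tested.

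Among the targets, Fkbp5 and Tsc22d3 moved in opposite directions. Fkbp5 encodes an immunophilin that lowers the hormone affinity of the receptor complex. It was at 64.0, 61.2 and 64.1 CPM in Vector and at 111, 102 and 101 CPM in the libraries labelled FTO. Each library labelled FTO was above each Vector library. In the fit the log2 difference was 0.73 (SE 0.0543, edgeR adjusted p = 1.2e-08).

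Tsc22d3, also known as Gilz, encodes a leucine zipper protein that binds and restrains NF-κB and AP-1. It was at 100.4, 94.6 and 100.3 CPM in Vector and at 59.9, 63.9 and 59.0 CPM in the libraries labelled FTO. All 3 libraries labelled FTO were below all 3 Vector libraries. This was a log2 difference of -0.69 (SE 0.0535, edgeR adjusted p = 1.8e-08). The count of Fkbp5 per count of Tsc22d3 was 0.638, 0.647 and 0.640 in Vector and 1.85, 1.6 and 1.71 in the libraries labelled FTO. These within-library ratios did not overlap, and they do not depend on how the libraries were scaled. Of the start regions printed above, that of Fkbp5 holds CCAAT alone and that of Tsc22d3 holds TATAAA and CCAAT. That of Sgk1, which was higher, also holds TATAAA. The window of Errfi1, also higher, holds both motifs. Of these genes only Tsc22d3 fell, and Sgk1 and Tsc22d3 have further windows that are not printed. Whether the motifs relate to the direction of change was not tested.

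Sgk1 encodes a kinase induced by both receptors, known for raising sodium transport. Its level was 108, 104 and 109 CPM in Vector and 248, 279 and 246 CPM in the libraries labelled FTO. Replicate 2 of the libraries labelled FTO was the highest, and the lowest of that group was still above all Vector libraries. On the log2 scale the groups differed by 1.27 (SE 0.0535, edgeR adjusted p = 1.1e-11). The change of Sgk1 and that of Nr3c1 lay close, with 95% confidence intervals of 1.15 to 1.38 and 1.24 to 1.44.

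Zbtb16, a zinc finger repressor also called Plzf, was expressed at a low level. It had 52, 61 and 45 counts in the Vector libraries and 122, 114 and 175 counts in the libraries labelled FTO, which is 3.80, 4.09 and 3.12 CPM against 8.56, 8.61 and 9.77 CPM. The groups were separate, with more relative spread in Vector (13.7%) than for the abundant targets. It rose by 1.29 on the log2 scale (SE 0.149, edgeR adjusted p = 1.9e-06).

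The remaining targets act on growth. Errfi1 encodes an inhibitor of the EGF receptor and had the smallest change of the 9 genes. It was at 84.8, 87.4 and 86.8 CPM in Vector and at 101, 104 and 109 CPM in the libraries labelled FTO. The groups did not overlap, but the rise was 1.21-fold, or 0.28 on the log2 scale (SE 0.0497, edgeR adjusted p = 1.6e-04). It did not pass when tested against a 1.2-fold change (adjusted p-value 0.312 in glmTreat of edgeR), and the range of its adjusted p-value over 14 alternatives was 2.9e-05 to 0.312. Of all tested genes, 29.7% had a log2 fold change at least as high.

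Cdkn1c encodes an imprinted inhibitor of cyclin-dependent kinases. Its counts were 55, 45 and 63 in Vector and 74, 71 and 137 in the libraries labelled FTO, or 4.02, 3.02 and 4.36 CPM against 5.19, 5.36 and 7.65 CPM. Replicate 3 of the libraries labelled FTO stood above the other two of its group, and the nearest libraries of the groups were at 4.36 and 5.19 CPM. In the fit the log2 difference was 0.70 (SE 0.196, edgeR adjusted p = 0.00566). Without that library the change was 0.47 (edgeR adjusted p = 0.0421), and over the 14 alternatives the adjusted p ran from 9.2e-04 to 0.0421.

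**Figure D2:**
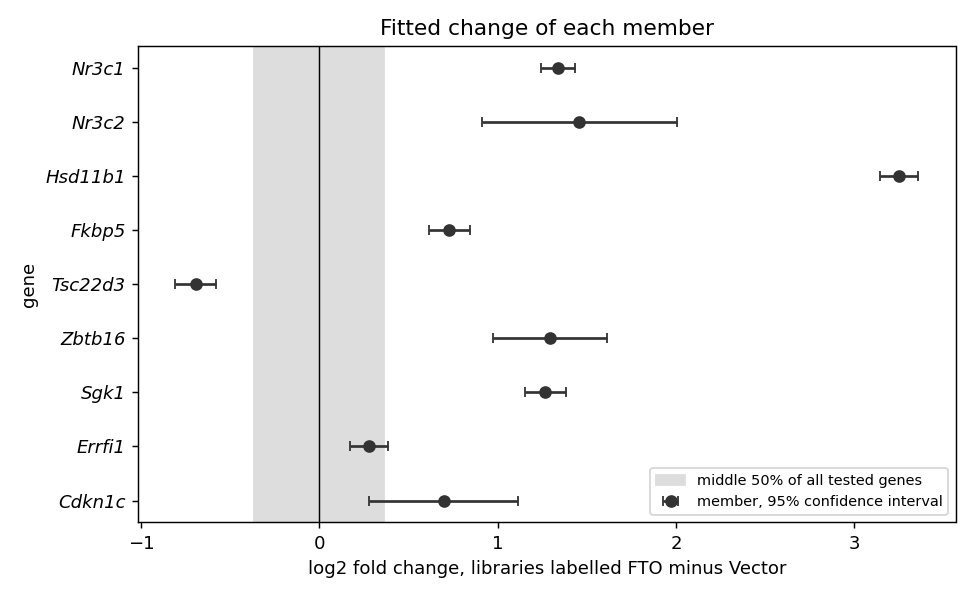
Fitted log2 fold change of each of the 9 genes (x axis, libraries labelled FTO minus Vector), with bars for the 95% confidence interval and a grey band for the middle 50% of all tested genes. Hsd11b1 lies farthest to the right at 3.25, Tsc22d3 alone lies to the left, and Errfi1 falls inside the band.

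Other genes of the pathway were then read from the same fit, in lists made with earlier results of these data known. Their counts of genes that passed stand beside the same background of 65.9% of all tested genes, 33.2% higher and 32.8% lower. The first holds genes whose induction by glucocorticoids is well known, beyond the 6 targets. Of the 27 that were tested among 29 listed, 17 were higher, 7 were lower and 3 did not pass the adjusted threshold, with a median log2 fold change of 0.61. Metallothioneins, which bind zinc and copper, rose most. Mt1 was at 4.38 ± 0.455 CPM in Vector and 577 ± 41.5 CPM in the libraries labelled FTO (SD, n = 3 each), a log2 fold change of 7.03. Mt2A was at 6.94 ± 0.671 and 540 ± 17.9 CPM, a difference of 6.28 on the log2 scale. Metallothionein genes are near-identical copies, so their counts are uncertain to that extent.

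Among genes of this list with at least 100 counts on average, Dusp4 and Mertk fell most. Dusp4, a phosphatase of MAP kinases, fell from 81.3 ± 1.62 to 19.2 ± 4.05 CPM, a difference of -2.07 on the log2 scale. Mertk, a receptor for the uptake of dying cells that macrophages also express, fell from 20.8 ± 1.6 to 7.78 ± 1.34 CPM, a difference of -1.41 on the log2 scale, beside the fall of the macrophage markers given above. A few more genes of this list were picked with their values already known. The clock gene Per1 rose by 0.61 and Klf15, a Krüppel-like factor, by 1.48 on the log2 scale, while Klf9, another factor of that family, changed by -0.44. Glul, glutamine synthetase, rose from 215 ± 5.84 to 637 ± 19.0 CPM. Pdk4, a kinase that limits glucose oxidation, was at 1.44 ± 0.333 and 0.930 ± 0.166 CPM and did not pass (edgeR adjusted p = 0.0832). Fam107a, of lower count, also fell (-1.52 on the log2 scale). The list thus held movements in both directions, as did the 6 targets.

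Genes listed as induced by glucocorticoids and also by inflammatory signals formed a separate list of 9. Whether genes of the earlier list answer to inflammatory signals as well was not tested. Of these, 8 were higher and 1 lower, with a median log2 fold change of 2.12. Lcn2, the iron-siderophore binder lipocalin-2, rose from 2.18 ± 0.751 to 3483 ± 335 CPM. Birc3, an inhibitor of apoptosis, rose from 6.40 ± 1.13 to 76.3 ± 4.76 CPM. Zfp36, whose product tristetraprolin promotes decay of cytokine mRNAs, was the gene that fell, from 45.4 ± 0.905 to 38.3 ± 2.04 CPM, or by -0.25 on the log2 scale (edgeR adjusted p = 0.00294). Dusp1, a phosphatase that limits p38 and JNK signalling, was singled out after its value was seen and rose by 0.65 on the log2 scale.

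**Figure D3:**
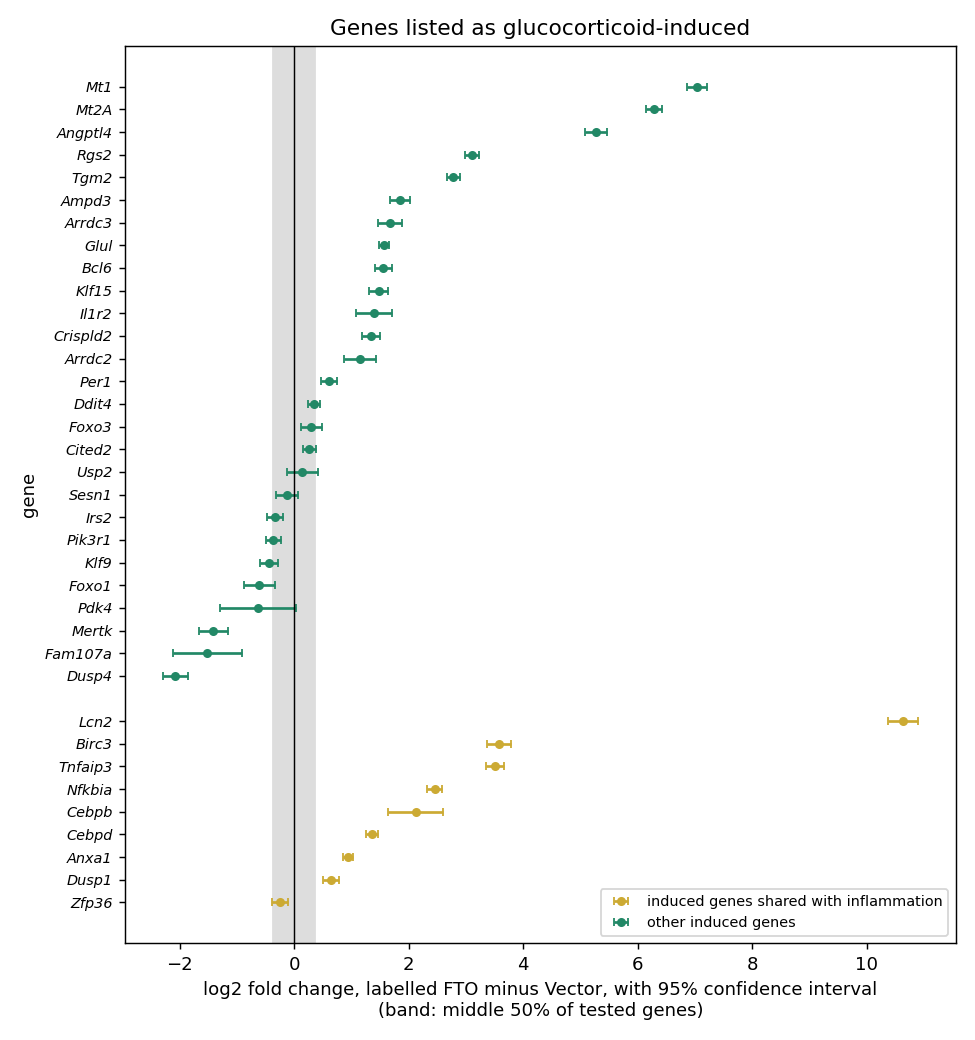
Log2 fold change (x axis, libraries labelled FTO minus Vector) with 95% confidence interval for 27 glucocorticoid-induced genes. Below them are 9 listed as also induced by inflammatory signals, and the grey band marks the middle 50% of all tested genes. Mt1 (7.03) and Lcn2 (10.63) head their lists, and Dusp4 (-2.07) is the lowest.

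Inflammatory genes that glucocorticoids are known to repress were higher wherever tested, though some were tested only because of their counts in the libraries labelled FTO. Of 18 listed, 17 were in the files and 16 were tested, and 16 of 16 were higher at the adjusted threshold, with a median log2 fold change of 6.03, or 5.47 with the 5 genes at the floor in Vector set to their lower bounds. These 5 genes met the filter on low counts only through the libraries labelled FTO. So did others, such as Cxcl10 (6, 5 and 5 counts in Vector) and Il1b (10, 7 and 1). Such genes could enter the test only as higher, so the count of 16 is no test of the list. Mmp3, the matrix protease stromelysin, had 0 counts in each Vector library and 288, 466 and 280 counts in the libraries labelled FTO, at least 108-fold higher. Ccl5, a chemokine for T cells and monocytes, had at most 1 count in a Vector library and 955 to 1284 counts in a library labelled FTO, at least 322-fold higher. Both bounds are computed against 3 counts per library. Tnf had no count in any library and was not tested.

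The chaperones that hold the receptor in its hormone-binding form passed the adjusted threshold about as often as genes in general, but less often when tested against a 1.2-fold change. Of 14 tested, 3 were higher, 6 lower and 5 did not pass, with a median of -0.06 on the log2 scale. Against a 1.2-fold change 2 of the 14 passed, where 5668 of all 12941 tested genes did. The co-chaperone Dnaja1 rose from 205 ± 5.2 to 305 ± 6.75 CPM and Dnajb1 from 56.2 ± 2.09 to 62.4 ± 1.42 CPM. The heat shock protein gene Hspa8 fell from 30.4 ± 3.09 to 22 ± 0.923 CPM, and the immunophilin Ppid fell from 41.8 ± 2.88 to 33.8 ± 2.41 CPM. Hsp90aa1, an Hsp90 gene used by most cells, had 3 counts over all 6 libraries, so no level is read from it, and Hspa8 has near-identical copies that can take its reads. Hsp90ab1, another Hsp90 gene of the list, is named after its value was seen. It fell from 1995 ± 18.7 to 1839 ± 38.4 CPM, a difference of -0.12 on the log2 scale.

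Coregulators of nuclear receptors were lower where they passed. Of 14 genes, 0 were higher, 8 were lower and 6 did not pass, where 65.9% of all tested genes passed and 32.8% were lower, with a median log2 fold change of -0.40. The coactivator Ncoa3 fell from 41.6 ± 2.89 to 17.4 ± 3.45 CPM, a difference of -1.25 on the log2 scale.

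In steroid handling, 4 of the 4 genes tested were higher, with a median log2 fold change of 0.90. Abcb1a, an efflux pump that exports steroids, rose from 62.4 ± 5.74 to 165 ± 4.74 CPM, a difference of 1.40 on the log2 scale, and H6pd, described above, changed by 1.23. The other two, named after their values were seen, were Srd5a1 and Srd5a3 of the steroid 5α-reductase family, at 0.58 and 0.28 on the log2 scale.

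Among 5 tested genes of the mineralocorticoid response and sodium transport, 2 were higher, 1 was lower and 2 did not pass. Nedd4l, a ubiquitin ligase that removes sodium channels and is a substrate of the Sgk1 kinase, fell from 43.0 ± 2.58 to 18.3 ± 1.94 CPM, a difference of -1.23 on the log2 scale. Scnn1a, a sodium channel subunit named after its value was seen since it had fewer than 100 counts on average, rose from 1.42 ± 0.203 to 5.28 ± 0.835 CPM. The partner subunits, also named after their values were seen, were not tested, with 5 to 9 counts per library for Scnn1b and at most 1 for Scnn1g.

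**Figure D4:**
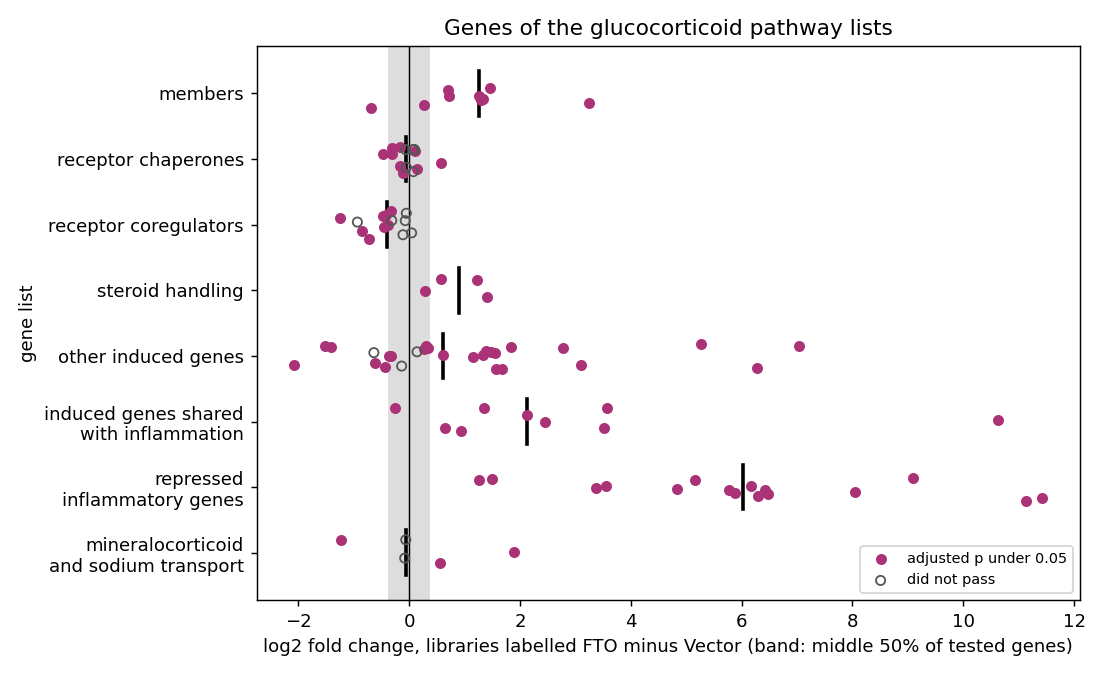
Log2 fold change (x axis, libraries labelled FTO minus Vector) of each tested gene in the 9 members and 7 pathway lists, filled where the adjusted p-value was under 0.05 and open where not, with a black line at each list's median and a grey band for the middle 50% of all tested genes. The medians run from -0.40 for coregulators to 6.03 for the repressed inflammatory genes, and the members' median is 1.27.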

How the data were processed

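Raw counts of RNA-seq reads, 1 whole number per gene symbol and library, were deposited by the authors, 1 file per library. The submitters' processing notes name Trimmomatic and build rn6. The aligner, counting program, annotation, use of strand and treatment of multi-mapping reads are not given in the sources used here, so overlapping and near-identical genes are uncertain. Groups follow the genotype labels and replicate numbers the titles. In 4 of the 6 files the serial number in the column header differs from that in the name of the file, while the group and replicate in both match the title.

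Genes were kept with filterByExpr (minimum count 10), which left 12941 of 21857 symbols, all 9 members included. Libraries were scaled by TMM (factors 0.995 to 1.005) and compared by the two-sided quasi-likelihood test of edgeR 4.0.16 in R 4.3.3, with Benjamini-Hochberg adjustment over all genes tested. The SE came from the fold change and its F statistic. The procedure was tested on simulated data. Intervals and floors cover counting error and library spread only. Replicates were not duplicates (chi-square per degree of freedom 1.57 to 8.38 within groups).

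The members and lists were chosen with earlier results of these data known. Named are the members, Fto, and per list and direction the 2 genes of largest fold change with no overlap, an adjusted p under 0.05 and at least 100 counts on average, and the 3 genes nearest Nr3c1; some genes this rule names are not reported here. Abcb1b, Cyp11b1, Nos2 and Ttn are not analysed here. Alternatives were DESeq2 1.42.0, limma-voom (limma 3.58.1), other scalings and filters, a replicate block, glmTreat and leaving out each library. Promoter windows came from RefSeq, whose build (GRCr8) is not that of the counts.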

Additional observations from a re-analysis of the deposited data

How the results depend on the processing

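All 9 members kept their direction under each of 14 alternatives, and each kept its call except Errfi1 under glmTreat against a 1.2-fold change, where 8 of the 9 passed. Under glmTreat 2 receptor chaperones passed in place of 9, since most of their changes are below that fold. Over all genes 5668 passed glmTreat, against 8531 without it and 9009 with no filter. Counts for the other lists stayed within 1.5 times. The number of members past the study's threshold was 5 in each alternative in which it applies. No difference of Fto was detected in any, with log2 fold changes of 0.05 to 0.08. No pairing by replicate number was seen. Deviations from the group means correlated at 0.004, -0.08 and 0.03 for same-numbered libraries and at -0.12 to 0.11 for others. With 3 libraries per group, such correlations cannot exclude a pairing. With the replicate block all 9 members passed and 8399 genes passed in all, against 8531 with no block. Depth limits Nr3c2, at 13 to 53 counts per library. Groups of 3 are too small for a formal outlier test, and single libraries were checked by leaving each out.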
